A study of Homo sapiens with 12 samples.

Results

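The genes described here serve the NRF2 antioxidant response, glutathione metabolism and cellular redox balance. The list has 37 members, taken by gene symbol. Of these, 36 had a probe set (a group of short probes for a transcript) that the platform annotation ties to that gene alone. All 36 were among the 16205 genes tested of 18132 measured; AKR1B1 had no such probe set and was not analysed here. Each gene was read from its brightest probe set. The study lowered MARK2, a serine/threonine kinase of cell polarity and microtubules, in 3 human lung cancer cell lines. In the KD groups, H1693, H1993 and H1650 cells carried a short hairpin RNA against MARK2. In the PLKO CONTROL groups, the same 3 lines carried the empty pLKO vector, so vector effects common to both are not measured. Each of the 6 groups has 2 arrays, labelled as replicates 1 and 2, so the spread behind each p-value is that between the 2 samples of a group, pooled over the 6 groups. Neither the hairpins' sequence and number nor the time after transduction is known here.

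NRF2, the product of NFE2L2, is a transcription factor that KEAP1 marks for degradation in unstressed cells. Oxidants and electrophiles modify KEAP1, and NRF2 then builds up, pairs with small MAF proteins and binds antioxidant response elements near genes for glutathione synthesis, thioredoxin, NADPH supply and detoxification. Much of this control acts on NRF2 protein, which arrays do not measure. In lung cancers the pathway is known for mutations of KEAP1 and NFE2L2 that keep it switched on.

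All values are log2 signals, and 1 unit is a doubling of signal. Array medians lay between 7.13 and 7.32, and differences of genes near or below that level are understated. MARK2 itself fell by 1.27 in H1693 KD cells (limma adjusted p = 0.000258) and by 2.35 in H1993 KD cells (adjusted p = 6.47e-06), and left 41.6% and 19.6% of the control signal. In H1650 its change was -0.29 (adjusted p = 0.156), so the label of those knockdown arrays was not borne out by their MARK2 signal. MARK2 was already dim in H1650 controls, at 5.94 against 7.86 in H1693 and 9.12 in H1993 controls. A fall from that level is understated. RNA integrity also separated H1650 from the other lines. The 3′ minus 5′ difference of the GAPDH control probe sets was 6.82 ± 0.07 (SD, n = 2) in H1650 KD and 2.68 ± 0.56 in H1650 PLKO CONTROL, and lay between -0.12 and 0.02 on the 8 arrays of H1693 and H1993. Every H1650 knockdown change, and every comparison of H1650 controls with other controls, therefore carries a difference in RNA integrity that cannot be told apart from the biology. Of the 7 epithelial markers, EPCAM, CDH1, KRT18 and KRT19 averaged 12.1 or more in all 6 groups. KRT7 was low in H1693 (6.38 in KD and 6.70 in PLKO CONTROL), KRT8 averaged 7.19 in H1650 KD and 11.66 in H1650 PLKO CONTROL, and NKX2-1 stayed between 6.91 and 7.25. Some moved with the knockdown: CDH1 rose by 0.72 in H1693 and 0.85 in H1993, KRT19 rose by 0.27 in H1993, and KRT7 fell by 0.33 in H1693. In H1650, 1 of the 7 rose and 4 fell. Of the 8 markers of other cells, PTPRC did not pass the filter on dim genes. CD3E, PECAM1, PDGFRB and VWF averaged between 5.68 and 7.21, while COL1A1, COL3A1 and CD68 averaged up to 10.5, 11.0 and 11.5. COL1A1 rose by 0.67 in H1693 and 0.59 in H1993, COL3A1 rose by 0.62 and CD68 fell by 0.30 in H1693, and CD68 rose by 0.38 in H1650. The part of these marker changes in the redox results was not tested. Bulk arrays cannot tell fewer cells expressing a gene from less RNA per cell.

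Some detoxification enzymes differed strongly between the control arrays of the 3 lines. The regulators, the thioredoxin system and the peroxiredoxins were high and had no called difference between the 3 sets of control arrays, whereas single glutathione transferases, aldo-keto reductases and NADPH enzymes differed by up to 7.28. A control difference was called where the adjusted p was under 0.05 and the size at least 2-fold. Between H1693 and H1993, 5 of 36 members (13.9%) were higher and 9 (25.0%) lower in H1693, against 14.2% and 11.8% of all genes tested. Between H1693 and H1650, 3 members (8.33%) were higher and 4 (11.1%) lower in H1693, against 9.19% and 14.1% of all genes. Between H1993 and H1650, 10 members (27.8%) were higher and 5 (13.9%) lower in H1993, against 9.23% and 16.8% of all genes. The share of members above H1650 in H1993 and the share below H1993 in H1693 were thus well over the background, and the other shares were near or below it. After quantile normalisation of the tested genes, H1693 against H1650 had 5 members higher and 1 lower. Among all 16205 genes that setting gave 1905 higher and 1805 lower, against 1490 and 2289 without it. For H1993 against H1650 it gave 10 members higher and 3 lower. All genes there had 1937 higher and 2075 lower, against 1495 and 2724 without it. The counts over all genes thus shifted too. By mean control signal, 17 members were highest in H1993, 11 in H1693 and 8 in H1650. The same order was not counted over all genes, so whether this split is particular to the members was not tested.

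**Figure D1:**
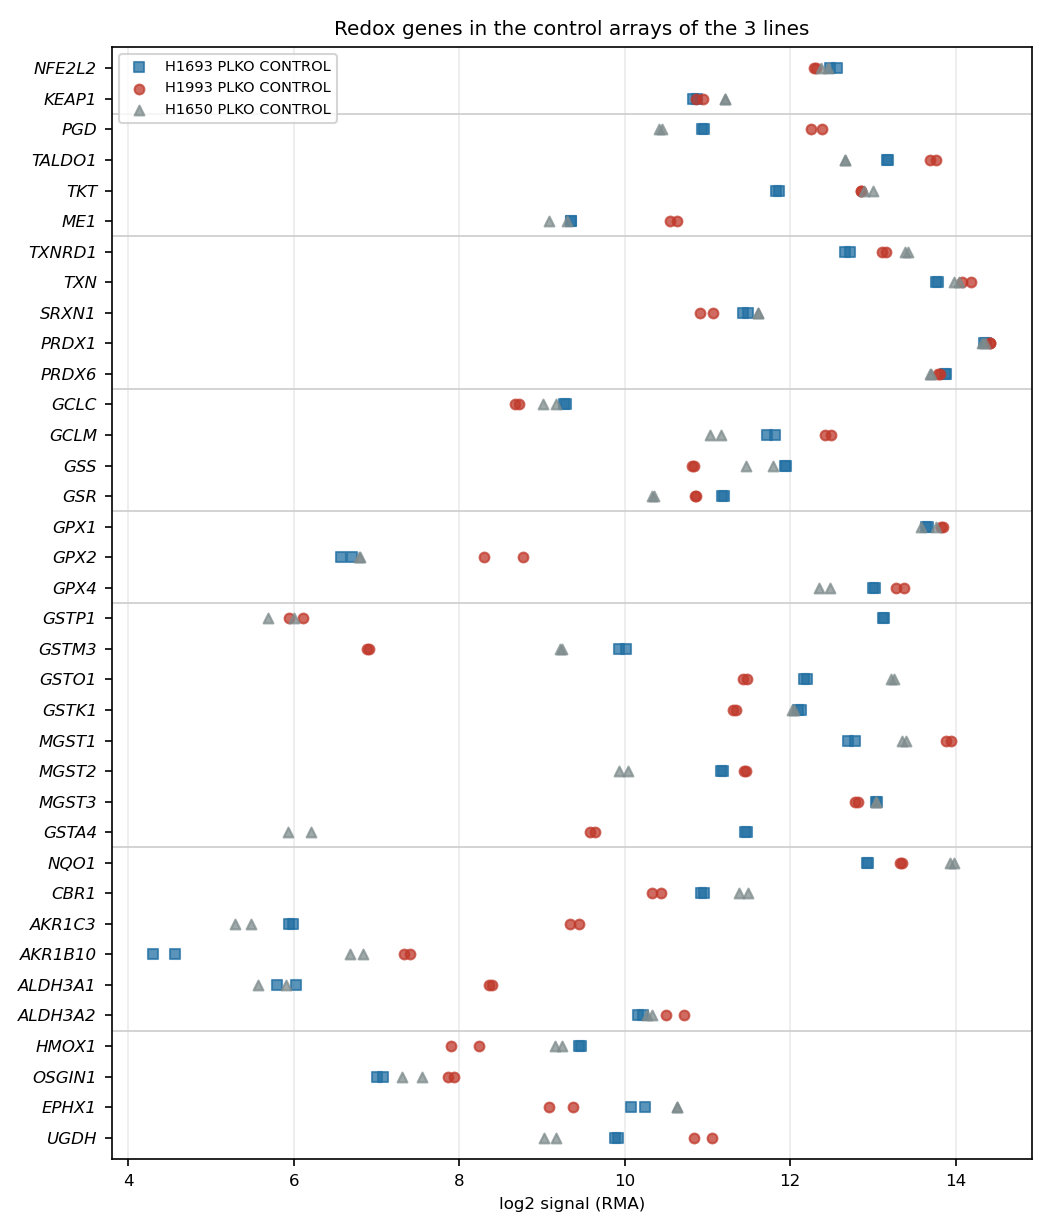
Log2 signal (horizontal axis) of the 36 redox genes (rows, grouped by role) on each PLKO CONTROL array, with 2 points per line for H1693 (squares), H1993 (circles) and H1650 (triangles). GSTP1 lies at 13.1 in H1693 and near 6 in both other lines, whereas PRDX1 and PRDX6 differ little between lines.

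GSTP1, the pi-class glutathione transferase that conjugates glutathione to electrophilic drugs, had the largest spread. It read 13.12 and 13.13 in H1693 controls, 6.11 and 5.94 in H1993 controls and 6.01 and 5.70 in H1650 controls. Both H1693 arrays were thus far above the 4 others, which overlapped between their lines. The difference was 7.10 (SE 0.12, limma adjusted p = 2.6e-11) for H1693 minus H1993 and 7.28 (adjusted p = 3.91e-11) for H1693 minus H1650. H1993 and H1650 differed by 0.18 (adjusted p = 0.233). The second GSTP1 probe set stayed between 5.42 and 6.27 on all 12 arrays, so the mean of both gave differences of 3.63 and 3.75 for H1693 minus H1993 and minus H1650. The knockdown arrays again had H1693 far above both other lines, at 13.05 and 13.15 in H1693 KD, 5.62 and 5.88 in H1993 KD, and 6.05 and 5.93 in H1650 KD.

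The promoter of GSTP1 is shown because no other member differed as much between lines, and because a copy of the core letters of the antioxidant response element lies close to its start. The window runs from 250 bases before to 50 after the RefSeq gene start at chr11:67583562-67583861 (GRCh38.p14, + strand), and capitals mark the match, which begins at position -66.
GSTP1: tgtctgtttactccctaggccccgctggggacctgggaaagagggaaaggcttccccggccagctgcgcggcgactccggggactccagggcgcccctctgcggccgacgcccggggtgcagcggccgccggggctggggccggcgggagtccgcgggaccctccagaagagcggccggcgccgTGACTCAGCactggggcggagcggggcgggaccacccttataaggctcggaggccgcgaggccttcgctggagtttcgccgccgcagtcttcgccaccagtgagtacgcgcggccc
The letters searched were TGACNNNGC on both strands. Promoter windows were at hand for 28 of the 36 members, and 12 of these (42.9%) held a match, against 16.1% of the 27305 genes with a window. Counted by window, it was 13 of 39 (33.3%) against 13.3% of 35116. A match names letters and not a bound site. The GSTP1 match also overlaps TGANTCA, the letters of an AP-1 site. GSTA4, GPX2, PGD, CBR1, GSTO1, TXNRD1, ME1, MGST1, EPHX1 and KEAP1 also held a match, as did GCLM, whereas the windows of NQO1, OSGIN1, GSTM3, GSTK1 and AKR1C3 held none within these 300 bases.

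GSTA4 is an alpha-class transferase that clears 4-hydroxynonenal, a product of lipid peroxidation. It read 11.45 and 11.48 in H1693 controls, 9.58 and 9.64 in H1993 controls and 6.21 and 5.93 in H1650 controls. The 3 lines formed 3 separate steps: H1693 stood 1.85 above H1993 (SE 0.10, limma adjusted p = 1e-07), and H1993 stood 3.54 above H1650 (adjusted p = 1e-09). GSTM3, a mu-class transferase, had another order. It read 10.01 and 9.93 in H1693 controls, 6.91 and 6.89 in H1993 controls and 9.22 and 9.24 in H1650 controls. H1993 was the low line here. The difference was 3.07 for H1693 minus H1993 (SE 0.07, adjusted p = 1.56e-10) and -2.33 for H1993 minus H1650 (adjusted p = 1.08e-09). H1693 and H1650 differed by 0.74 (adjusted p = 5.53e-06), short of 2-fold. The other GSTM3 probe sets were dim in all lines, and the mean over probe sets gave 1.12 for H1693 minus H1993 and -0.84 for H1993 minus H1650, where the call was lost.

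Of the aldo-keto reductases, AKR1C3 was high in H1993, whereas AKR1B10 was low in H1693. AKR1C3, which reduces steroid, prostaglandin and drug carbonyls, read 5.95 and 5.99 in H1693 controls, 9.45 and 9.33 in H1993 controls and 5.49 and 5.29 in H1650 controls. Its difference was -3.42 (SE 0.09, limma adjusted p = 5.69e-10) for H1693 minus H1993 and 4.005 (adjusted p = 2.47e-10) for H1993 minus H1650. H1693 stood 0.58 above H1650 (adjusted p = 0.000321), under the 2-fold size. With its dim second probe set averaged in, the differences were -1.91 and 2.10. AKR1B10, which reduces retinal and other aldehydes, read 4.57 and 4.30 in H1693 controls, 7.41 and 7.33 in H1993 controls and 6.83 and 6.68 in H1650 controls. H1693 was the low line for it, with differences of -2.93 for H1693 minus H1993 (SE 0.17, adjusted p = 1.15e-07) and -2.32 for H1693 minus H1650 (adjusted p = 8.04e-07). Its H1693 signal lay below the floor of 5 used to filter genes, so these sizes are understated.

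Other members that differed were mostly high in H1993. ALDH3A1, an aldehyde dehydrogenase, differed by -2.46 for H1693 minus H1993 and by 2.64 for H1993 minus H1650. GPX2, a glutathione peroxidase of epithelia, differed by -1.90 and 1.74 in the same pairs. Of the NADPH enzymes, PGD, ME1 and TALDO1 were also highest in H1993, whereas TKT was lowest in H1693. PGD of the pentose phosphate pathway differed by -1.37 for H1693 minus H1993 and by 1.89 for H1993 minus H1650, and ME1, the cytosolic malic enzyme, by -1.24 and 1.39. TALDO1, the transaldolase, differed by 1.07 for H1993 minus H1650, and TKT, the transketolase, by -1.01 for H1693 minus H1993 and -1.10 for H1693 minus H1650. UGDH, which makes the sugar donor for glucuronidation, was also highest in H1993, with -1.05 for H1693 minus H1993 and 1.85 for H1993 minus H1650. MGST1, a membrane-bound transferase, differed by -1.17 for H1693 minus H1993, and GCLM by 1.36 for H1993 minus H1650. HMOX1, the haem-degrading enzyme, was low in H1993, with 1.39 for H1693 minus H1993 and -1.13 for H1993 minus H1650 on the probe set used. Averaging its probe sets ended both calls (0.98 and -0.07), and the second was also lost under quantile normalisation (-0.82) and without H1993 PLKO CONTROL replicate 1. GSS, the enzyme of the last step of glutathione synthesis, differed by 1.12 for H1693 minus H1993. MGST2, another membrane-bound transferase, was lowest in H1650, with 1.19 for H1693 minus H1650 and 1.47 for H1993 minus H1650. H1650 controls were the high ones for GSTO1 (-1.05 for H1693 minus H1650 and -1.78 for H1993 minus H1650), NQO1 (-1.02 for H1693 minus H1650), EPHX1 (-1.40 for H1993 minus H1650) and CBR1 (-1.05 for H1993 minus H1650). Of these, quantile normalisation ended the calls of GSTO1 and NQO1 for H1693 minus H1650 (both -0.91) and of CBR1 (-0.86). NQO1 also lost its call without H1650 PLKO CONTROL replicate 1, and CBR1 without H1993 PLKO CONTROL replicate 1 or with probe sets averaged. Quantile normalisation ended both TKT calls (-0.93 and -0.95), and so did leaving out H1693 PLKO CONTROL replicate 2 for H1693 minus H1993. The UGDH call for H1693 minus H1993 was lost without H1993 PLKO CONTROL replicate 2, and the TALDO1 call with probe sets averaged (0.71). The remaining members with no called pair were NFE2L2, KEAP1, TXNRD1, TXN, SRXN1, PRDX1, PRDX6, GCLC, GSR, GPX1, GPX4, GSTK1, MGST3, ALDH3A2 and OSGIN1.

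Some redox genes differed between KD and PLKO CONTROL arrays in each line, in both directions, and in H1693 and H1993 the changes were mostly small. The largest in these lines was that of AKR1C3, which rose in all 3 lines. GCLC rose while GCLM, which encodes the other subunit of the same enzyme, fell in H1693 and H1993, and GSTK1 and MGST2 rose in H1693 but fell in H1993. In H1693, 8 of 36 members (22.2%) rose and 3 (8.33%) fell, against 17.1% and 15.9% of all genes tested. In H1993, 10 members (27.8%) rose and 7 (19.4%) fell, against 18.9% and 14.5% of all genes. The median member change was -0.01 in H1693 and 0.02 in H1993, while all genes had medians of -0.02 and 0.02. The member medians thus lay close to those of all genes. Past 1.5-fold were 2 members in H1693 and 3 in H1993, but the matching share of all genes was not counted. The counts depended on single arrays: H1993 kept 9 calls in all without PLKO CONTROL replicate 2, against 17, and H1693 kept 7 without KD replicate 2 or without PLKO CONTROL replicate 2, against 11.

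**Figure D2:**
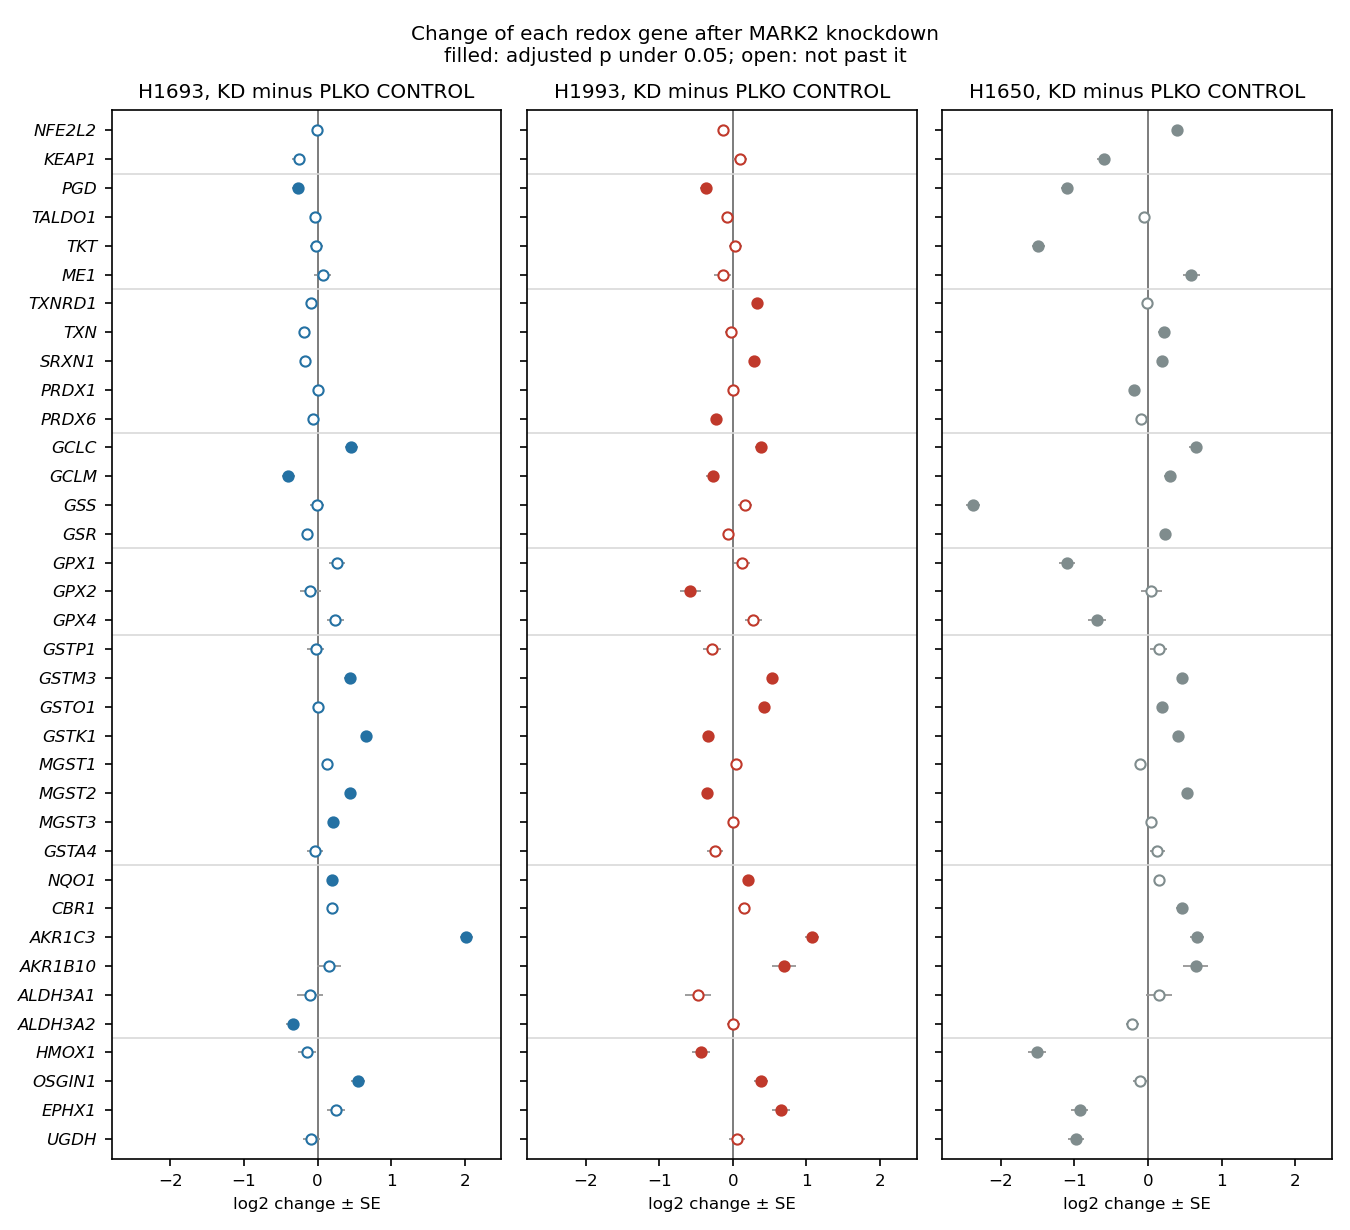
Log2 change, KD minus PLKO CONTROL, of each redox gene (rows, grouped by role) in H1693, H1993 and H1650, with bars for the SE of the fit (n = 2 arrays per group). Filled points passed an adjusted p of 0.05, and most changes in H1693 and H1993 lie within 1 of 0 apart from AKR1C3, while H1650 has several falls beyond 1.

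The regulators did not pass the test in H1693 or H1993. NFE2L2, which encodes NRF2, read 12.52 and 12.50 in H1693 KD and 12.56 and 12.48 in H1693 PLKO CONTROL, a change of -0.01 (limma adjusted p = 0.954). In H1993 its arrays read 12.22 and 12.11 in KD and 12.29 and 12.31 in PLKO CONTROL, a change of -0.14 (adjusted p = 0.161). KEAP1 changed by -0.26 in H1693 (adjusted p = 0.0587) and by 0.10 in H1993 (adjusted p = 0.499). Its H1693 arrays, at 10.55 and 10.63 in KD and 10.87 and 10.82 in PLKO CONTROL, did not overlap, but the test over all genes did not call them.

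In glutathione synthesis, the subunits of glutamate-cysteine ligase, the rate-limiting enzyme, moved apart. GCLC, the catalytic subunit, read 9.68 and 9.79 in H1693 KD and 9.26 and 9.29 in H1693 PLKO CONTROL. In H1993 it read 9.19 and 8.97 in KD and 8.72 and 8.67 in PLKO CONTROL. Knockdown arrays lay above control arrays in both lines, with rises of 0.46 in H1693 (SE 0.09, limma adjusted p = 0.00291) and 0.38 in H1993 (adjusted p = 0.00743). GCLM, the modifier subunit that lowers feedback inhibition by glutathione, read 11.33 and 11.42 in H1693 KD and 11.81 and 11.73 in H1693 PLKO CONTROL. In H1993 it read 12.27 and 12.09 in KD and 12.50 and 12.42 in PLKO CONTROL. Here the knockdown arrays lay below the controls, with changes of -0.40 in H1693 (SE 0.09, adjusted p = 0.00569) and -0.27 in H1993 (adjusted p = 0.0339). The H1993 calls were the less secure ones: GCLM lost its call without any of 3 H1993 arrays (-0.18 without KD replicate 2), and GCLC without H1993 KD replicate 1. All 4 probe sets of GCLC were positive in both lines (0.08 to 0.46 in H1693, 0.11 to 0.38 in H1993), and both probe sets of GCLM were negative (-0.40 and -0.13 in H1693, -0.44 and -0.27 in H1993). Averaging probe sets kept the calls, with smaller changes for GCLC (0.28 in H1693 and 0.25 in H1993) and for GCLM in H1693 (-0.26). GSS and GSR, the reductase that restores glutathione, did not pass in either line, with changes between -0.14 and 0.16.

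The promoters of these paired subunits are shown because their signals moved in opposite directions. The GCLM window (chr1:93909381-93909680, GRCh38.p14, - strand) holds a match to the element's letters, read on the opposite strand and starting at position -34, in capitals. The GCLC window (chr6:53545052-53545351, GRCh38.p14, - strand) holds no match, which says nothing about sites further away.
GCLM: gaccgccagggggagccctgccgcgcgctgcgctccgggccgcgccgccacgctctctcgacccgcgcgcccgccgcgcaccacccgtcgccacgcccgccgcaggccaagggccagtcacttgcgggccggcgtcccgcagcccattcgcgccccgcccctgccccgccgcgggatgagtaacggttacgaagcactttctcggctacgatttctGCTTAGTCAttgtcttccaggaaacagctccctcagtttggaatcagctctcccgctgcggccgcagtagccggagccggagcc
GCLC: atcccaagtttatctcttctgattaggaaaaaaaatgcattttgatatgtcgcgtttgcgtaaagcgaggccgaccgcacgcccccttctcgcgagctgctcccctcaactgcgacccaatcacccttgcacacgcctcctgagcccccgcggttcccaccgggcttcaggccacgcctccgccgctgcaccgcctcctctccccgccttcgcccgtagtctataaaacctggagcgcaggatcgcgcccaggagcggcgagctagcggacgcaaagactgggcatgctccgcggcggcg

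**Figure D3:**
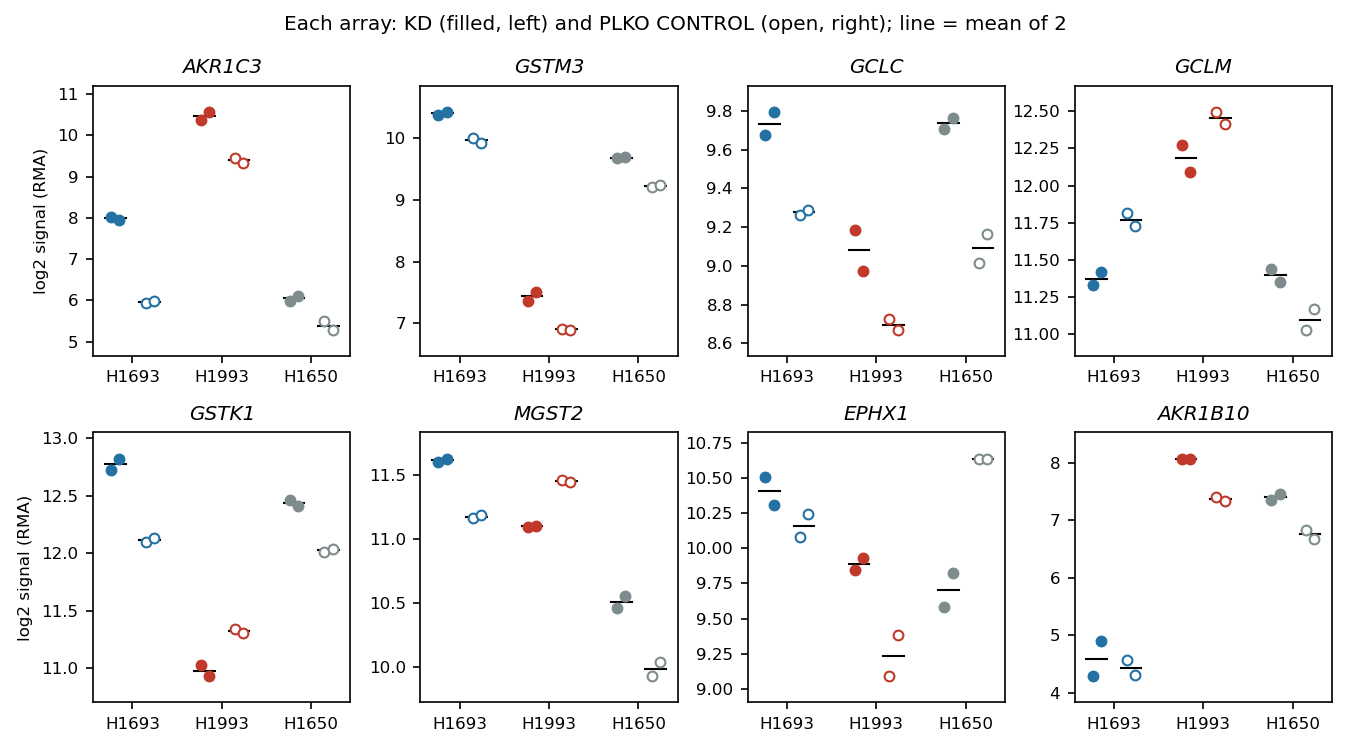
Log2 signal on each array (vertical axes, scaled per gene and not starting at 0) of 8 redox genes in H1693, H1993 and H1650, with KD arrays filled on the left, PLKO CONTROL arrays open on the right and a line at each mean of 2. AKR1C3, GCLC and GSTM3 are higher in KD in all 3 lines, while GSTK1 and MGST2 are higher in H1693 KD and lower in H1993 KD than in their controls.

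Of the 6 members whose change differed between H1693 and H1993 by the test of the difference, 3 were glutathione transferases. Of the 8 transferases measured, 2 had a higher change in H1693 and 1 a lower one. Among all genes, 9.48% were higher and 12.6% lower, and whether the family stands out was not tested. GSTK1, a kappa-class transferase of mitochondria and peroxisomes, read 12.72 and 12.82 in H1693 KD and 12.10 and 12.13 in H1693 PLKO CONTROL, a rise of 0.66 (SE 0.07, limma adjusted p = 6.58e-05). In H1993 it read 11.03 and 10.93 in KD and 11.34 and 11.31 in PLKO CONTROL, a change of -0.34 (adjusted p = 0.0029). The changes differed between these lines by 1.00 (SE 0.09, adjusted p = 0.000106). The second GSTK1 probe set changed by 0.38 in H1693 but by 0.08 in H1993, and the H1993 call was lost when probe sets were averaged (-0.09). The difference between lines was then 0.59 and kept its call. MGST2 read 11.60 and 11.63 in H1693 KD and 11.17 and 11.19 in H1693 PLKO CONTROL, a rise of 0.44 (adjusted p = 0.000706). In H1993 it read 11.10 and 11.11 in KD and 11.46 and 11.45 in PLKO CONTROL, a change of -0.35 (adjusted p = 0.00238). Its difference between lines was 0.79 (adjusted p = 0.000368), and in neither line did its KD and PLKO CONTROL arrays overlap.

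GSTM3 rose in both lines, by 0.43 in H1693 (limma adjusted p = 0.00103) and by 0.54 in H1993 (adjusted p = 0.000276). Its arrays read 10.39 and 10.43 in H1693 KD and 10.01 and 9.93 in H1693 PLKO CONTROL, and 7.36 and 7.51 in H1993 KD and 6.91 and 6.89 in H1993 PLKO CONTROL. All 3 of its probe sets rose in H1693 (0.28 to 0.52), but in H1993 the other 2 were at -0.06 and 0.07, and the H1993 call was lost when probe sets were averaged (0.18). GSTO1, an omega-class transferase, rose by 0.42 in H1993 (adjusted p = 0.000465), with 11.85 and 11.89 in KD and 11.43 and 11.48 in PLKO CONTROL. In H1693 GSTO1 read 12.19 on both KD arrays and 12.17 and 12.20 on the PLKO CONTROL arrays, and the difference between lines was -0.42 (adjusted p = 0.00618). MGST3 rose by 0.22 in H1693 (adjusted p = 0.0247), a call lost without any 1 of the 4 H1693 arrays. GSTP1, GSTA4 and MGST1, which set the lines apart most or were among the brightest, did not pass in either line, with changes between -0.28 and 0.13.

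AKR1C3 had the largest member change in both lines. It read 8.03 and 7.95 in H1693 KD and 5.95 and 5.99 in H1693 PLKO CONTROL. In H1993 it read 10.38 and 10.57 in KD and 9.45 and 9.33 in PLKO CONTROL. All KD arrays lay above their controls, by 2.02 in H1693 (SE 0.09, 4.07-fold, limma adjusted p = 1.35e-06) and by 1.08 in H1993 (2.11-fold, adjusted p = 2.61e-05). The rise was larger in H1693 by 0.95 (SE 0.13, adjusted p = 0.000989), and H1693 KD cells still stayed below H1993 PLKO CONTROL cells. These values rest on 1 probe set, since the other stayed below the floor of 5 on all 12 arrays. With that one averaged in, the changes were 1.09 in H1693 and 0.52 in H1993 and their difference 0.57, all still called. Genes of the AKR1C family are near-identical in sequence, and how much of the AKR1C3 signal comes from its relatives was not tested.

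AKR1B10 rose by 0.70 in H1993 (SE 0.17, limma adjusted p = 0.00962), with 8.07 and 8.06 in KD and 7.41 and 7.33 in PLKO CONTROL, and the call was lost without H1993 PLKO CONTROL replicate 2. In H1693 it read 4.29 and 4.89 in KD and 4.57 and 4.30 in PLKO CONTROL, dim and overlapping. NQO1, a quinone reductase and a standard NRF2 target, rose by 0.20 in H1693 (adjusted p = 0.03) and by 0.21 in H1993 (adjusted p = 0.0219). Its arrays read 13.10 and 13.17 in H1693 KD and 12.93 and 12.94 in H1693 PLKO CONTROL, and 13.57 and 13.53 in H1993 KD and 13.33 and 13.35 in H1993 PLKO CONTROL. The groups did not overlap, but each call was lost when any 1 array of its own line was left out. ALDH3A2, a fatty aldehyde dehydrogenase, changed by -0.34 in H1693 (adjusted p = 0.0133), while 1 of its 3 probe sets was at 0.06. Its mean over probe sets was -0.19, and the call was lost without H1693 PLKO CONTROL replicate 2 or either KD replicate. CBR1, a carbonyl reductase, and ALDH3A1 did not pass, at 0.20 and -0.10 in H1693 and 0.15 and -0.47 in H1993.

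In the thioredoxin system and the peroxiredoxins, 3 of 5 members had calls in H1993, where 18.9% of all genes rose and 14.5% fell. TXNRD1, thioredoxin reductase, read 13.51 and 13.40 in H1993 KD and 13.10 and 13.16 in H1993 PLKO CONTROL, a rise of 0.33 (limma adjusted p = 0.00415). SRXN1, sulfiredoxin, which repairs over-oxidised peroxiredoxins, read 11.27 and 11.29 in H1993 KD and 10.91 and 11.07 in H1993 PLKO CONTROL, a rise of 0.29 (adjusted p = 0.00911) that lost its call without PLKO CONTROL replicate 1. In H1693 both had lower KD than control arrays without passing, and the H1693 minus H1993 difference was -0.42 for TXNRD1 (adjusted p = 0.0113) and -0.45 for SRXN1 (adjusted p = 0.00884). PRDX6, a peroxiredoxin that reduces phospholipid peroxides, changed by -0.23 in H1993 (adjusted p = 0.0157) and lost the call without any 1 H1993 array, while the mean over its probe sets was -0.39 and kept the call. TXN and PRDX1, thioredoxin and the main cytosolic peroxiredoxin, did not pass in either line, with changes between -0.18 and 0.00. Of the NADPH enzymes, PGD fell in both lines, by 0.27 in H1693 (adjusted p = 0.0291) and by 0.36 in H1993 (adjusted p = 0.00718). Its arrays read 10.71 and 10.64 in H1693 KD and 10.96 and 10.93 in H1693 PLKO CONTROL, and 11.95 and 11.96 in H1993 KD and 12.25 and 12.38 in H1993 PLKO CONTROL. The H1693 call was lost without any 1 of its 4 arrays, and the H1993 call without PLKO CONTROL replicate 2. TALDO1, TKT and ME1 did not pass in either line.

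Of the peroxidases, GPX2 changed by -0.58 in H1993 (limma adjusted p = 0.0109), with 7.998 and 7.92 in KD and 8.30 and 8.78 in PLKO CONTROL, a call lost without PLKO CONTROL replicate 2 (-0.34) or KD replicate 2. GPX1, the main cytosolic peroxidase, and GPX4, which reduces lipid peroxides in membranes, were at 0.27 and 0.24 in H1693 and 0.13 and 0.28 in H1993 and did not pass. Among the other targets, OSGIN1, an oxidative stress-induced growth inhibitor, rose in both lines, by 0.55 in H1693 (adjusted p = 0.0017) and 0.38 in H1993 (adjusted p = 0.0123). It read 7.61 and 7.58 in H1693 KD and 7.01 and 7.08 in H1693 PLKO CONTROL, and 8.37 and 8.19 in H1993 KD and 7.94 and 7.87 in H1993 PLKO CONTROL. The H1993 call was lost without KD replicate 1 or PLKO CONTROL replicate 2. EPHX1, the microsomal epoxide hydrolase, read 9.85 and 9.93 in H1993 KD and 9.09 and 9.38 in H1993 PLKO CONTROL, a rise of 0.65 (SE 0.12, adjusted p = 0.00217). In H1693 EPHX1 read 10.51 and 10.31 in KD and 10.08 and 10.24 in PLKO CONTROL, higher without passing. HMOX1 changed by -0.43 in H1993 (adjusted p = 0.0212), with 7.60 and 7.68 in KD and 7.90 and 8.24 in PLKO CONTROL, and the call was lost without PLKO CONTROL replicate 2 (-0.26) or either KD replicate. UGDH did not pass in either line.

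Across H1693 and H1993, 5 members (13.9%) rose in both lines, against 8.37% of all genes: AKR1C3, GCLC, GSTM3, NQO1 and OSGIN1. GCLM and PGD fell in both (5.56% of members, against 6.94% of all genes). GSTK1 and MGST2 were called in opposite directions (5.56%, against 2.8% of all genes). In 17 members (47.2%, against 51.7% of all genes) neither line had a call. The test of the difference itself called 3 members as higher in H1693 than in H1993 (8.33%, against 9.48% of all genes), which were GSTK1, AKR1C3 and MGST2. It called TXNRD1, SRXN1 and GSTO1 as lower (8.33%, against 12.6%). These 6 calls held under each of the 12 single-array omissions and each of the 7 other settings tried. The comparisons of these lines share no arrays.

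In H1650, 14 members (38.9%) rose and 10 (27.8%) fell, against 36.7% and 16.7% of all genes. Past 1.5-fold were 13 members, again with no matching share counted over all genes. The GAPDH 3′ minus 5′ difference moved with the knockdown here by more than any redox gene did, and its part in these changes cannot be told apart from that of the hairpin. The median of all genes was itself shifted by 0.15 in H1650, against 0.04 after quantile normalisation, and the members' median was 0.09. Quantile normalisation gave 11 rises and 12 falls of members. Among all 16205 genes it gave 4737 rises and 3468 falls, against 5954 and 2702 without it, so the counts over all genes shifted too. GSS fell most, with 9.22 and 9.27 in KD and 11.79 and 11.46 in PLKO CONTROL, a change of -2.38 (limma adjusted p = 1.94e-07), and its second probe set changed by -1.97. HMOX1 changed by -1.51 (probe sets -1.51 to -0.43), TKT by -1.49 (-1.94 to -0.77), GPX1 by -1.10 (-1.27 to -1.10), PGD by -1.10 (-1.20 to -1.10) and GPX4 by -0.70 (-0.89 to -0.70). All probe sets of these members were negative. UGDH, at -0.98, had a second probe set at 0.63. Each of EPHX1 (-0.93), KEAP1 (-0.61) and PRDX1 (-0.20) had 1 probe set.

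The H1650 rises were smaller. AKR1C3 read 5.997 and 6.10 in KD and 5.49 and 5.29 in PLKO CONTROL, a rise of 0.66 (limma adjusted p = 0.000245) at a dim level. AKR1B10 rose by 0.65 (probe sets 0.51 to 0.65), GCLC by 0.64 (0.10 to 0.69), ME1 by 0.59 (0.59 to 0.72) and GSTM3 by 0.46 (0.16 to 0.46). Unlike in the other lines, GCLM rose, by 0.30 with its second probe set at -0.03. MGST2 rose by 0.52, GSTO1 by 0.19 and SRXN1 by 0.19, each on 1 probe set. NFE2L2 rose by 0.39 with its second probe set at -0.05, CBR1 by 0.46 (probe sets -1.27 to 0.46), GSTK1 by 0.41 (0.06 to 0.41), GSR by 0.23 (0.12 to 0.23) and TXN by 0.21 (0.13 to 0.21). Averaging probe sets ended the calls of CBR1 (0.03), GSTK1 (0.17), GCLM (0.14), UGDH (-0.18) and TXN, and gave smaller called changes for NFE2L2 (0.17), GSTM3 (0.29) and HMOX1 (-0.89). Quantile normalisation ended those of SRXN1 (0.10), GSR (0.13) and GSTO1 (0.14). Leaving out 1 array ended the SRXN1 call in 8 of 12 cases, the TXN call in 7, the GSR call in 3 and the GSTO1, GCLM and PRDX1 calls in 2 each. The AKR1B10 call was lost without H1650 PLKO CONTROL replicate 2. AKR1C3, GCLC and GSTM3 rose in all 3 lines (8.33% of members, against 5.42% of all genes), and PGD fell in all 3 (2.78%, against 2.23%). Only ALDH3A1, GSTA4, GSTP1, MGST1 and TALDO1 were called in no line.

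Probe sets of a gene read different stretches of its transcripts, and their agreement differed between lines. Of the 26 members with several probe sets that reached the floor, the median range of the changes was 0.16 in H1693, 0.12 in H1993 and 0.32 in H1650. The range was over 1 for 1 member in H1693, 1 in H1993 and 6 in H1650. In H1693 and H1993 the member was TKT, whose dimmest probe set changed by -1.14 and -1.39 while the one used was at -0.02 and 0.04. In H1650, TXNRD1 had probe sets between -1.52 and -0.01. Of the called members with several probe sets, all sets had 1 sign in 8 of 9 in H1693, 9 of 11 in H1993 and 13 of 17 in H1650.

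**Figure D4:**
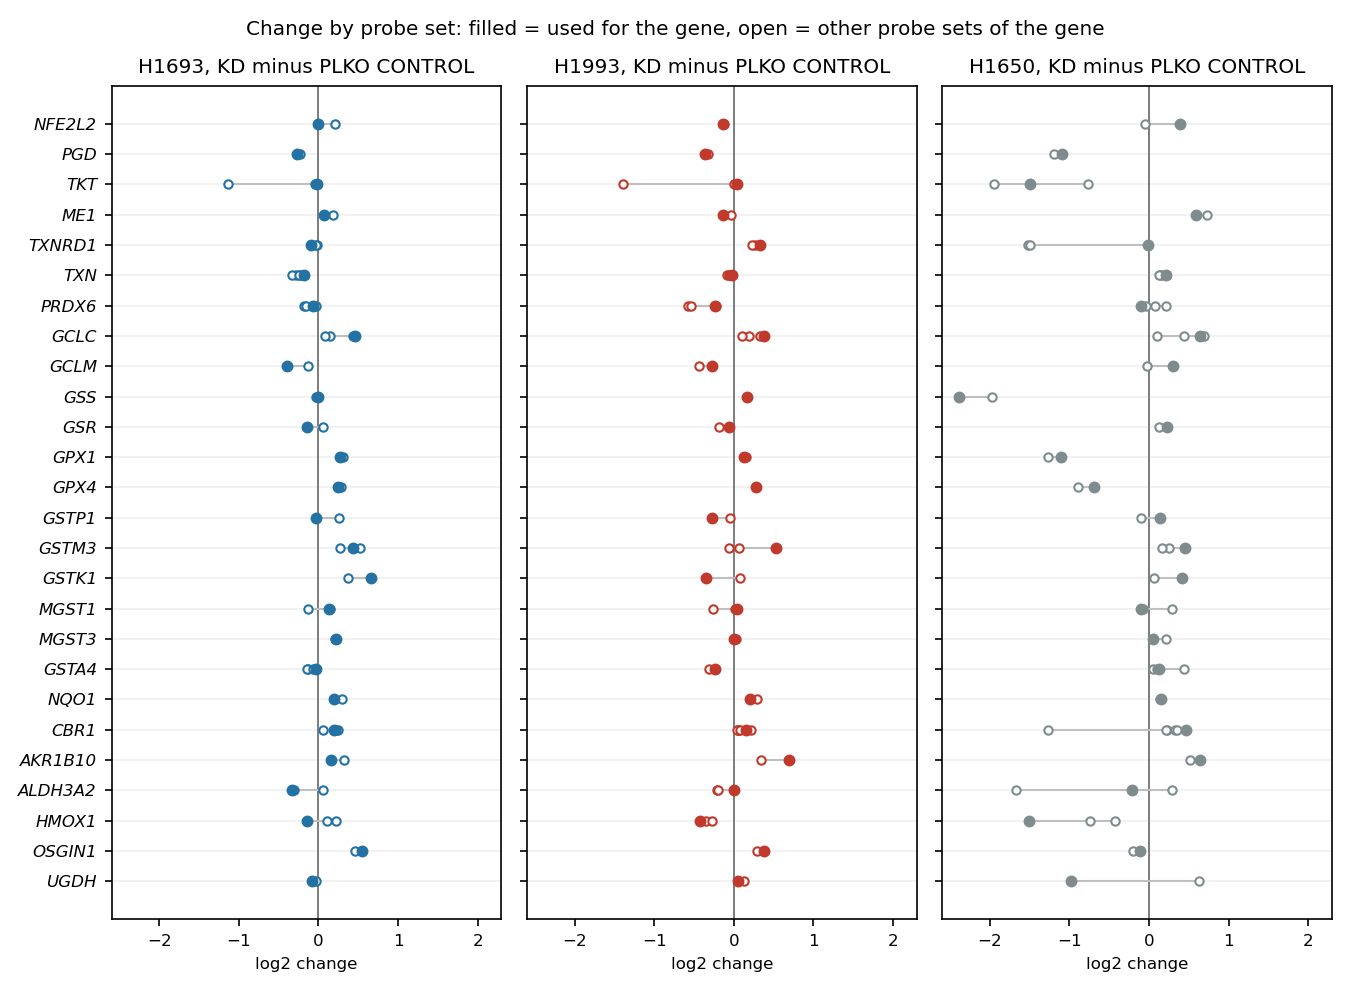
Log2 change, KD minus PLKO CONTROL, of every probe set that reached the floor of 5 on at least 2 arrays, for the 26 redox genes with several (rows), in H1693, H1993 and H1650. Filled points are the probe sets used and open points the others; the spread within a gene is widest in H1650, with a median range of 0.32.

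Other genes of the pathway had rises and falls side by side as well. Of 53 further genes listed, 41 were tested: 7 rose and 7 fell in H1693, and 11 rose and 5 fell in H1993, with median changes of -0.04 and -0.01. These are shares of 17.1% and 17.1% in H1693, against 17.1% and 15.9% of all genes, and of 26.8% and 12.2% in H1993, against 18.9% and 14.5%. In H1650, 17 rose and 8 fell (41.5% and 19.5%, against 36.7% and 16.7% of all genes). Among 7 further regulators, NFE2L1, a relative of NRF2, rose by 0.41 in H1693 and 0.29 in H1993, and MAFF, a small MAF partner, fell by 0.19 and 0.47. MAFG rose by 0.24 and RBX1, a part of the KEAP1 ubiquitin ligase, fell by 0.28 in H1693, while SQSTM1, an autophagy adaptor that binds KEAP1, rose by 0.34 in H1993. Among 12 further targets, SLC7A11, the cystine importer that feeds glutathione synthesis, read 11.45 and 11.46 in H1693 KD and 10.28 and 10.27 in H1693 PLKO CONTROL. That was a rise of 1.18 (limma adjusted p = 5.36e-06), and its H1693 minus H1993 difference was 1.24 (adjusted p = 6.22e-05). IDH1, BLVRB and ABCC2 rose by 0.71, 0.63 and 0.53 in H1693. In H1993, AKR1C2, ABCC3 and ABCC2 rose by 0.70, 0.65 and 0.58, and PIR, with 10.54 and 10.37 in KD and 11.44 and 11.47 in PLKO CONTROL, fell by 1.00 (adjusted p = 0.000236). TXNIP, the thioredoxin inhibitor, rose by 1.03 in both lines (adjusted p = 1.39e-05 in H1693 and 1.16e-05 in H1993). Of the other 15 antioxidant enzymes tested, CAT, GPX8 and TXNRD2 rose by 0.76, 0.40 and 0.28 in H1993, and GLRX3 and NQO2 fell by 0.38 and 0.25 in H1693. Among 6 further glutathione transferases, GSTCD and GSTO2 fell by 0.63 and 0.37 in H1693 and GSTM4 fell by 0.86 in H1993.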

How the data were processed

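Total RNA of 12 samples was labelled and read on Affymetrix PrimeView arrays. The submitters' processing notes name RMA and Affymetrix Expression Console, with no versions. The authors deposited 1 log2 value per probe set and array. RMA corrects for background, puts all arrays on one scale and merges the probes of a set, so dim genes have compressed differences.

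Of 49395 probe sets, 44988 carried 1 gene symbol and were used; 44961 matched a RefSeq gene ID. The probe set with the highest mean stood for its gene, and genes with 2 or more arrays at a log2 signal of 5 were tested. All 12 arrays entered a single limma model (version 3.58.1, run in R 4.3.3) with 1 mean per group (lmFit, eBayes, 6 residual and 3.52 prior degrees of freedom), two-sided, with Benjamini-Hochberg adjustment over 16205 genes and a threshold of 0.05. It was tested on simulated data. The number of arrays limits the precision. Replicate arrays were not duplicates: identical values made up at most 0.0992% of probe sets.

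Replicate numbers were checked for pairing: deviations of same-numbered arrays correlated at -0.18 in H1693, 0.29 in H1993 and -0.11 in H1650, over 0.1 in H1993 only. No label ties a number to a shared culture or day, so the numbers were not taken as pairs. The members and the other gene lists were chosen with earlier results of these data known. All members are named; from each other list the text names up to 4 called genes with the largest change in H1693 and in H1993. Full statistics go to members called with a change of at least 0.585 in either line and to the 5 with the largest spread between controls. Alternatives were quantile normalisation, other filters, the mean over probe sets, a replicate block, an intensity trend, and leaving out single arrays or H1650. Promoter windows (300 bases) come from RefSeq, GRCh38.p14.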

Additional observations from a re-analysis of the deposited data

Results flagged for a closer look

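Knockdown changes that differed between H1693 and H1993 by a test of the difference (limma, adjusted p under 0.05) were GSTK1 at 1.00, AKR1C3 at 0.95, MGST2 at 0.79, TXNRD1 at -0.42, GSTO1 at -0.42 and SRXN1 at -0.45, each as H1693 minus H1993.

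For some members, SRXN1, GSTK1 and MGST2 among them, both H1650 KD arrays moved one way against their controls and both KD arrays of another line moved the other way. These differences were not tested, and RNA integrity moved with the knockdown in H1650. The share of all genes with the same pattern was not counted, so whether it is particular to the members was not tested. As H1650 minus H1993, the change differed by 0.53 for NFE2L2, -0.70 for KEAP1, -1.53 for TKT, 0.73 for ME1, 0.57 for GCLM, -2.55 for GSS and -1.23 for GPX1. It differed by -0.98 for GPX4, 0.75 for GSTK1, -0.15 for MGST1, 0.88 for MGST2 and -1.58 for EPHX1. As H1650 minus H1693, it differed by 0.39 for TXN, 0.36 for SRXN1, 0.70 for GCLM, 0.38 for GSR, -1.37 for GPX1, -0.94 for GPX4, -0.23 for MGST1 and -1.18 for EPHX1.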

How the results depend on the processing

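The knockdown counts of members called ranged, when single arrays were left out, over 7 to 15 in H1693 (11 with all arrays), 9 to 19 in H1993 (17) and 18 to 25 in H1650 (24), and the count of differences between H1693 and H1993 over 6 to 7 (6). The control counts ranged over 13 to 15 for H1693 against H1993 (14), 6 to 7 for H1693 against H1650 (7) and 13 to 15 for H1993 against H1650 (15). An intensity trend in eBayes raised the H1693 count to 17 and the count of differences to 10. Among all 16205 genes it gave 2987 rises and 2769 falls in H1693, against 2763 and 2583 without it. For the difference it gave 1792 genes higher and 2289 lower, against 1537 and 2040. The counts over all genes thus rose too, and the cause was not tested. With a replicate block within each line the counts were 9 in H1693, 15 in H1993, 21 in H1650 and 6 for the difference, with GCLM, PRDX6 and NQO1 among the calls lost in H1993; a block over the 3 lines left the control counts at 14, 7 and 15. The numbers crossed, chosen after seeing the data, gave 11 in H1693 and 25 in H1650. Without the H1650 arrays the counts were 15 in H1693, 20 in H1993 and 7 for the difference. The knockdown and difference counts over all genes also fell with the block within each line and rose without H1650. Of the values of single members under all alternatives, 4507 of 4752 kept sign and side of the threshold, 70 stayed uncalled with another sign, 97 lost a call, 78 gained one and no called value changed sign. Calls present in every setting numbered 7 of 11 in H1693, 5 of 17 in H1993, 14 of 24 in H1650 and 6 of 6 for the difference. With 2 arrays per group, a change that misses the threshold is not shown to be absent, and H1650 values cannot be separated from RNA integrity.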

Other observations

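Probe sets that the annotation ties to several genes were left out of the tests. A pair of probe sets for AKR1B10 and AKR1B15 changed by -0.21 and -0.21 in H1693, 1.62 and 1.38 in H1993, and 0.76 and -0.47 in H1650. The brightest probe set for AKR1C1 and AKR1C2 together changed by 0.75 in H1693, 0.86 in H1993 and 0.69 in H1650. Its KD and PLKO CONTROL signals in H1693 and H1650 all lay below the floor of 5.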
